A study of Homo sapiens with 9 samples.

Results

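The genes described here are 154 protein-coding genes that start between 11 and 47 Mb of human chromosome 16 (hg38, GENCODE release 29) in H358, a cell line from a non-small cell lung carcinoma. They were chosen by position and by a mean of at least 4 CPM (TMM-scaled counts per 1e6 reads) over 9 RNA-seq libraries, and 3 genes of the interval were left out by the rule. Of the other 263 protein-coding genes of the interval, 154 reached that level and 109 did not, 29 of them with 0 reads in all 9 libraries. The whole set of tested genes numbered 18205. The interval was proposed because its genes were lower in the BRM knockout than in parental cells in these same libraries. Values of that comparison are therefore a description. Its edgeR calls come from the fit over all genes and are counted beside the share of all genes called, and nothing is supported with them.

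The study compared 3 groups of 3 libraries, all from total RNA of H358 cells grown in RPMI medium with serum: a CRISPR knockout of BRM (the gene SMARCA2), a CRISPR knockout of BRG1 (the gene SMARCA4), and the parental line, the only control. BRM knockout libraries held 37710368, 33720255 and 40679073 estimated reads, BRG1 knockout libraries 34676466, 39448251 and 36709911, and parental libraries 31969961, 37356292 and 40172192. The sources used here do not give whether a knockout is 1 clone or a pool, where its guides cut, or whether numbered replicates were separate cultures. The p-values therefore measure the spread between these libraries, which may be technical. In bulk RNA, fewer cells that express a gene and less RNA of it per cell cannot be told apart.

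BRG1 and BRM are alternative ATPase subunits of SWI/SNF complexes, which use ATP to slide or evict nucleosomes and so alter the access of transcription factors to DNA. The interval covers much of the short arm of chromosome 16, the centromere and the first genes of the long arm. Its short-arm part is rich in segmental duplications that carry copies of gene families such as NPIP, NOMO and BOLA2, and recurrent deletions and duplications between these blocks are known in human developmental disorders. The members have no common function: they include glycolytic and mitochondrial enzymes, cell division proteins, chromatin regulators, zinc-finger factors and membrane proteins.

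The edited genes followed their labels. SMARCA2 stood at 10.3, 12.0 and 9.36 CPM in BRM knockout libraries against 49.3, 58.0 and 55.5 CPM in parental ones, and SMARCA4 at 23.9, 21.2 and 23.6 CPM in BRG1 knockout libraries against 244, 216 and 212 CPM in parental ones. The summed level of 8 lung epithelial markers lay between 5910 and 7160 CPM in BRM knockout libraries, between 441 and 1300 CPM in BRG1 knockout libraries, and between 6430 and 6540 CPM in parental ones, with SFTPB at or under 0.0602 CPM in every library. The summed level of 6 fibroblast markers was 82.4 to 127 CPM in BRM knockout libraries and 390 to 1020 CPM in BRG1 knockout libraries, against 31.1 to 62.3 CPM in parental ones. COL1A1 made up most of it in the BRM knockout, at 73.5 to 112 CPM against 23.2 to 38.6 CPM in parental libraries. COL1A2 was low but also lay above every parental library there, at 1.64 to 2.02 CPM against 0.358 to 1.6 CPM. COL3A1, LUM, PDGFRB and DCN did not rise there. In the BRG1 knockout COL1A1, COL3A1 and PDGFRB made up most of it, with COL3A1 at 739 CPM in replicate 3. There LUM and COL1A2 overlapped parental libraries, and DCN stayed under 1 CPM. The summed level of 4 endothelial markers was 47.8 to 75.5 CPM in BRM knockout libraries, 4.55 to 4.66 CPM in BRG1 knockout libraries and 4.57 to 9.40 CPM in parental ones. KDR made up most of it in the BRM knockout, at 43.7 to 72.5 CPM, while PECAM1 and CDH5 were under 1 CPM there. VWF was also higher there than in any parental library, at 2.41 to 3.16 CPM against 0.287 to 1.57 CPM. The summed level of 6 blood cell markers was 17.1 to 55.6 CPM in BRM knockout libraries, 9.05 to 12.7 CPM in BRG1 knockout libraries and 14.9 to 21.5 CPM in parental ones. CD68 made up most of it, and the other 5 were under 1 CPM in every library. The part of these markers in the results below was not tested. BRM knockout replicate 2, BRG1 knockout replicate 3 and parental replicate 1 stood apart from their groups. Chi-square values per degree of freedom over genes were 73.5 and 50.9 for pairs with that BRM knockout library against 24.6 for the other pair. They were 137 and 208 for pairs with that BRG1 knockout library against 58.6 for the other pair. They were 52.5 and 65.6 for pairs with parental replicate 1 against 11.5 for the other pair.

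Along chromosome 16, members were lower in all 3 BRM knockout libraries than in parental cells, and the genes beyond 47 Mb were higher. The median member had a log2 ratio to the parental mean of -0.51, -0.59 and -0.50 in the 3 BRM knockout libraries, -0.10, -0.11 and 0.01 in the BRG1 knockout libraries, and 0.00, 0.00 and -0.02 in the parental libraries themselves. Over the 252 protein-coding genes of the same minimum level from 47 Mb to the end, the medians were 0.47, 0.36 and 0.45 in BRM knockout libraries, 0.29, 0.32 and 0.34 in BRG1 knockout libraries, and 0.06, -0.02 and -0.03 in parental ones. The difference between the member median and the median from 47 Mb was therefore -0.96 ± 0.02 in BRM knockout libraries, -0.38 ± 0.05 in BRG1 knockout libraries and -0.01 ± 0.04 in parental libraries (SD, n = 3 each). The BRM knockout, BRG1 knockout and parental libraries did not overlap on this measure. The interval was proposed from the BRM comparison, and parental libraries are set against their own mean, so this separation is a description. Set against other chromosomes, the member difference was -0.532, -0.646 and -0.555 in BRM knockout libraries. It was -0.014, -0.054 and 0.022 in BRG1 knockout libraries, which overlapped the parental -0.018, 0.003 and 0.002.

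**Figure D1:**
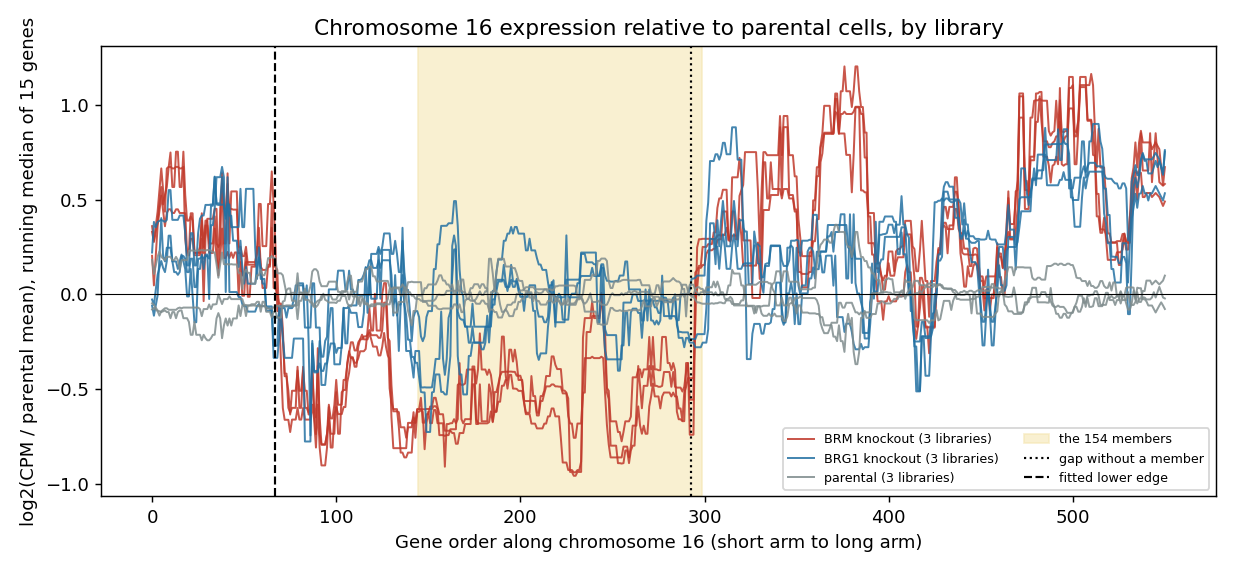
Running median over 15 genes of the log2 ratio of each library's CPM to the parental mean (vertical axis), for the 551 protein-coding genes of at least 4 CPM in order along chromosome 16 (horizontal axis), with 1 line per library of the BRM knockout, the BRG1 knockout and the parental line. The 3 BRM knockout lines drop below 0 at the dashed fitted lower edge, stay below 0 through most of the shaded members and lie mostly above 0 past the dotted gap.

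Where the change began and ended was located by fitting 3 levels to the log2 ratios of each BRM knockout library in gene order. In BRM knockout replicates 2 and 3 and in the mean of the 3 libraries, the lower level started at MLST8 (2.2 Mb), just past TRAF7 (2.16 Mb), and in replicate 1 it started at TRAF7, just past RAB26 (2.14 Mb). It thus began below the 11 Mb bound of the members, in all 3 libraries within 1 gene of each other. The lower level ended with ORC6 (46.69 Mb) in replicates 2 and 3 and in the mean, and with C16orf87 (46.8 Mb) in replicate 1. The 3 fitted levels, before, within and after this block, were 0.40, -0.48 and 0.47 in replicate 1, 0.25, -0.60 and 0.36 in replicate 2, and 0.35, -0.51 and 0.45 in replicate 3. The block of the mean held 229 genes, with 67 before it and 255 after it. Fitted by least squares, the mean's upper edge was NETO2 (47.08 Mb), and so was that of replicates 1 and 3, while replicate 2 still ended with ORC6 and its lower level then started at CCNF (2.43 Mb). Without the members of the cell division list the lower level ended with C16orf87 (46.8 Mb) in replicate 1 and with VPS35 (46.66 Mb) in replicate 2. In replicate 3 and in the mean it then ended with ZNF267 (31.87 Mb), the last member before a gap of 14.71 Mb in which no member starts.

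The fitted block also held genes outside the members. Its edges were placed in these same ratios, and a cut at 2 Mb lies beside its lower edge. Lower medians inside it thus follow from the fit and are a description. The 85 genes that start between 2 and 11 Mb had a median log2 change of -0.37 in the edgeR fit of BRM knockout against parental cells, and the 60 genes below 2 Mb one of 0.32. Just below the bound, NUBP1 (10.74 Mb), CIITA (10.87 Mb), DEXI (10.93 Mb) and CLEC16A (10.94 Mb) had values of -1.10, -1.10, -0.63 and -0.88. Just above the other bound, NETO2 had -1.13, while ITFG1 (47.15 Mb), PHKB (47.46 Mb) and LONP2 (48.24 Mb) had 0.23, 0.36 and 0.28. In bins of 2 Mb the median of this contrast was negative in every bin from 10 to 32 Mb that held genes, from -0.30 at 16 to 18 Mb (2 genes) to -0.99 at 12 to 14 Mb (2 genes). In the bins with most genes it was -0.50 at 28 to 30 Mb (30 genes) and -0.58 at 30 to 32 Mb (47 genes).

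**Figure D2:**
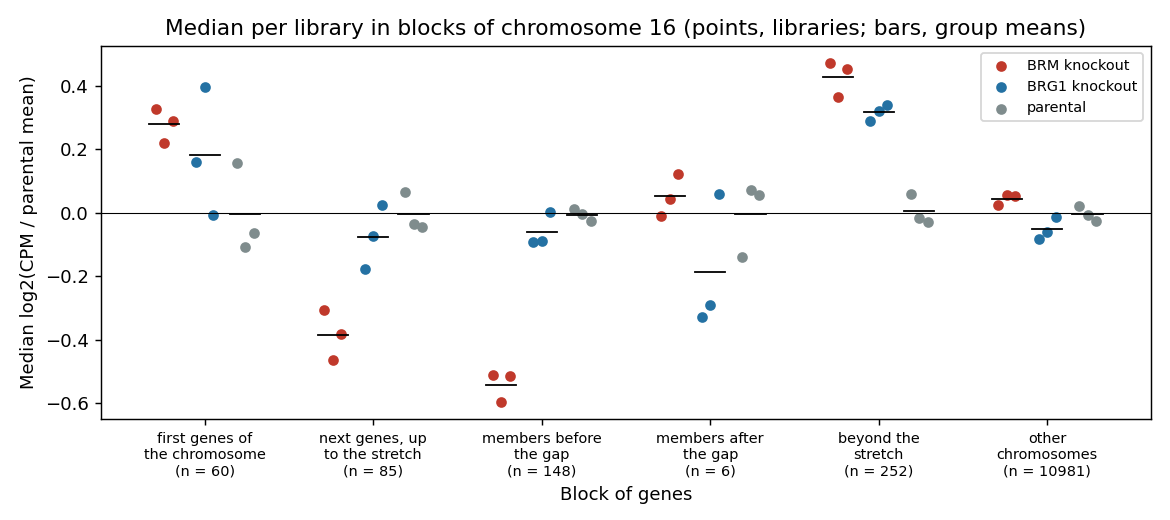
Median log2 ratio of CPM to the parental mean (vertical axis) in 6 blocks of genes (horizontal axis), with 1 point per library and a bar for the mean of 3 libraries of the BRM knockout, the BRG1 knockout and the parental line. The first block holds the 60 genes below 2 Mb and the next the 85 genes from 2 to 11 Mb. The cut at 2 Mb lies beside the lower edge fitted to the same ratios, so the contrast between these blocks is a description. BRM knockout points lie below all parental points in the blocks from 2 to 11 Mb and of members before the gap, and above them beyond 47 Mb.

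Gene by gene, the 154 members spread widely around a lowered centre. Their log2 changes in BRM knockout against parental cells had a median of -0.52, quartiles of -0.89 and -0.05, and extremes of -3.14 (SHCBP1) and 2.62 (SBK1), and 118 of 154 (76.6%) were below 0. By edgeR at an adjusted p under 0.05, 80 members (51.9%) were called lower, 7 (4.55%) higher and 67 neither, where among all 18205 tested genes 37.4% were called in either direction, 16.4% lower and 21.0% higher. Among the 11535 protein-coding genes of at least 4 CPM the shares were 43.0%, 19.7% and 23.4%. The median over all tested genes was 0.09, and over the 10981 protein-coding genes of the same level on other chromosomes it was 0.06. In 96 members (62.3%) all 3 BRM knockout libraries lay below all 3 parental libraries and in 13 (8.44%) above them. The shares were 26.1% and 32.1% of all tested genes and 30.2% and 34.3% of the 11535 protein-coding genes of the same level. Because the rule used this contrast, nothing is read from these shares.

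Summed over members, the level was 8144.5, 7795.4 and 8045.9 CPM in BRM knockout libraries, 11086.3, 12024.0 and 12766.3 CPM in BRG1 knockout libraries, and 11367.0, 12236.2 and 11892.3 CPM in parental libraries. The BRM knockout sums did not overlap those of either other group, and the BRG1 knockout and parental sums did overlap. From 47 Mb on, the sums were 27041.8, 27074.7 and 26881.7 CPM in BRM knockout libraries, 24162.0, 26064.9 and 25804.2 CPM in BRG1 knockout libraries, and 19507.5, 19645.0 and 19043.3 CPM in parental ones. There both knockouts lay above every parental library.

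**Figure D3:**
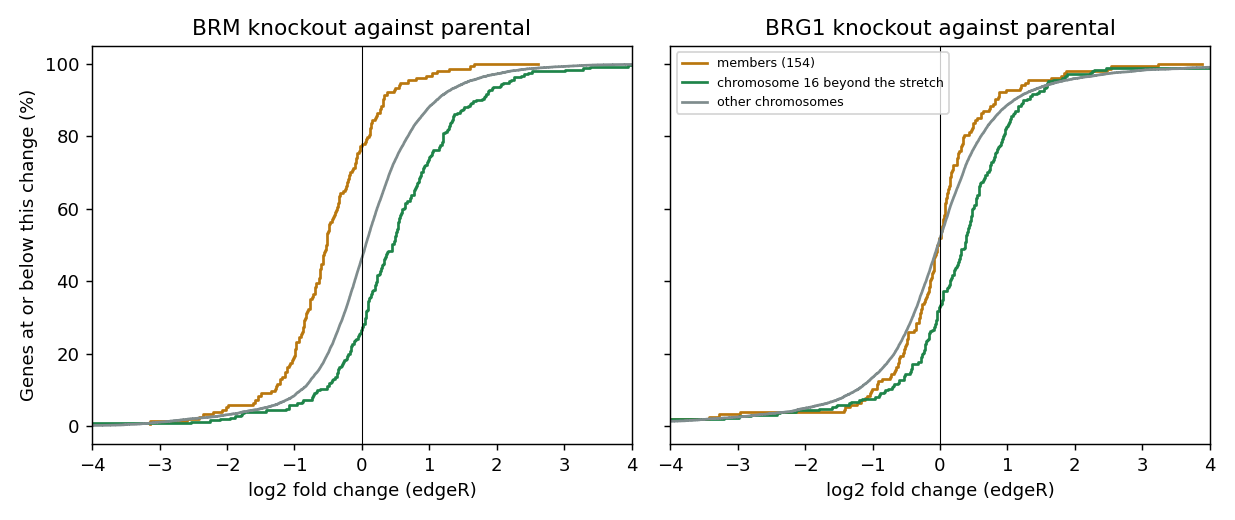
Cumulative share of genes (vertical axis, percent) at or below each log2 fold change (horizontal axis, edgeR), for the 154 members, the 252 genes of chromosome 16 from 47 Mb and the 10981 genes of other chromosomes, in BRM knockout against parental cells (left) and BRG1 knockout against parental cells (right). On the left the member curve lies to the left of the others, with a median of -0.52 against 0.46 and 0.06; on the right its median of -0.02 lies beside that of other chromosomes at -0.03.

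Thresholds were placed on a continuous scale. The members just over the level of 4 CPM were AC099489.1 (4.50 CPM), PRRT2 (4.53 CPM) and ZNF688 (4.71 CPM), with BRM knockout log2 changes of 0.94, 1.29 and -0.83. AC099489.1 had a group mean of at least 4 CPM only in the BRM knockout, and PRRT2 only in the BRG1 knockout. Just under the level of 4 CPM, SLX1B (3.72 CPM), CTF1 (3.44 CPM) and REXO5 (2.91 CPM) had BRM knockout changes of -0.996, 0.07 and -2.58. The first members by position were RMI2 (11.25 Mb) and AC099489.1 (11.36 Mb), and the last were GPT2 (46.88 Mb) and DNAJA2 (46.96 Mb). RMI2 and AC099489.1 overlap on opposite strands, and the sources used here do not give the strand setting of the counting, so reads of these genes may not be separable.

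The 148 members before the gap and the 6 after it differed in their medians. Before the gap the median BRM knockout log2 change was -0.52, with 78 members called lower (52.7%) and 7 higher (4.73%). After the gap it was 0.07, with 2 called lower (33.3%) and 0 higher by edgeR. Among all tested genes 16.4% were called lower and 21.0% higher, and among protein-coding genes of the same level 19.7% and 23.4%. The per-library medians after the gap, -0.01, 0.04 and 0.12, overlapped those of the parental libraries, -0.14, 0.07 and 0.06. The 2 members called lower there were SHCBP1 and ORC6, both cell division genes, and they lie on either side of VPS35. SHCBP1 (ENSG00000171241.8; 46580554 to 46621626, minus strand) is a Shc-binding protein of the midbody. It stood at 4.32, 12.3 and 2.73 CPM in BRM knockout libraries, 24.2, 41.1 and 57.5 CPM in BRG1 knockout libraries, and 43.6, 62.7 and 63.4 CPM in parental libraries. ORC6 (ENSG00000091651.8; 46689643 to 46698394, plus strand) is the smallest subunit of the origin recognition complex. Its level stood at 10.3, 12.3 and 5.57 CPM in BRM knockout libraries, 21.1, 40.96 and 34.1 CPM in BRG1 knockout libraries, and 39.0, 58.5 and 53.6 CPM in parental libraries. For both genes the BRM knockout libraries lay below all others. Their log2 changes in the BRM knockout were -3.14 ± 0.53 and -2.42 ± 0.33 (SE, n = 3 per group).

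VPS35 (ENSG00000069329.17; 46656132 to 46689518, minus strand) is the core of the retromer, which returns cargo from endosomes. It stood at 225, 198 and 239 CPM in BRM knockout libraries, 187, 182 and 236 CPM in BRG1 knockout libraries, and 198, 240.2 and 224 CPM in parental libraries. All 3 groups overlapped, and its BRM knockout log2 change was 0.00 ± 0.15. GPT2 (ENSG00000166123.13), mitochondrial alanine transaminase, had 135, 181 and 134 CPM in BRM knockout libraries, 90.5, 106 and 169 CPM in BRG1 knockout libraries and 111, 123 and 129 CPM in parental ones. DNAJA2 (ENSG00000069345.11), a cytosolic co-chaperone of HSP70, had 135, 127 and 134 CPM in BRM knockout libraries, 130.5, 138 and 139 CPM in BRG1 knockout libraries, and 120, 98.1 and 102 CPM in parental ones. In these last 2 genes every BRM knockout library lay above every parental library, but their changes of 0.31 ± 0.22 and 0.31 ± 0.13 were not called. The DNAJA2 change was called with offsets for GC content and length and without parental replicate 1, at 0.40 in both. DNAJA2 was called higher in the BRG1 knockout, at 0.35 ± 0.13 (edgeR adjusted p = 0.048), a call that was lost with RLE size factors (adjusted p = 0.051) and in 11 other alternatives.

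The promoters of these neighbours and of KIF22 are shown because ORC6 and SHCBP1 flank VPS35 and differ from it, and KIF22 is the member of the same list with the largest fall before the gap. The sequences are RefSeq's on GRCh38.p14, 250 bases before to 50 after the annotated start, each 5′ to 3′ on its gene's strand. Capitals mark CCAAT or its reverse complement ATTGG, the box bound by NF-Y, and TTTGAA, the cell cycle element known as CHR. The windows lay for KIF22 at chr16:29790501-29790800 (plus strand), SHCBP1 at chr16:46621330-46621629 (minus), VPS35 at chr16:46689129-46689428 (minus) and ORC6 at chr16:46689409-46689708 (plus); the VPS35 and ORC6 windows overlap.
KIF22: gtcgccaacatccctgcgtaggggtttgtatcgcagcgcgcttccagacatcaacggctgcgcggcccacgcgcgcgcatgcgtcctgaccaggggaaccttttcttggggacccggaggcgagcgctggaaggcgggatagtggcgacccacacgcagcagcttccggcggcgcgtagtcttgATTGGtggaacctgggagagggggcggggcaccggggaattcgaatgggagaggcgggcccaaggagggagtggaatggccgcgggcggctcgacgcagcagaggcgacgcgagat
SHCBP1: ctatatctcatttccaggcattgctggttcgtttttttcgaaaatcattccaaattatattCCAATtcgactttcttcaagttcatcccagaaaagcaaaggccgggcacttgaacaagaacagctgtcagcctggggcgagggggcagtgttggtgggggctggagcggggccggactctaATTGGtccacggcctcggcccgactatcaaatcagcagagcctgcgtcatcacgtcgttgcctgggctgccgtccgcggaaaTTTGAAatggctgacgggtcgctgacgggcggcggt
VPS35: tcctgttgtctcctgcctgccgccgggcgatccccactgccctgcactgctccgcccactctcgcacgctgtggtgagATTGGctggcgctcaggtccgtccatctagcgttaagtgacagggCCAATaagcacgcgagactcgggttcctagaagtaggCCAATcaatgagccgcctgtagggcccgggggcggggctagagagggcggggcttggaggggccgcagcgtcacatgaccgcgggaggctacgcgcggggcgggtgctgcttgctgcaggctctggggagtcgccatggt
ORC6: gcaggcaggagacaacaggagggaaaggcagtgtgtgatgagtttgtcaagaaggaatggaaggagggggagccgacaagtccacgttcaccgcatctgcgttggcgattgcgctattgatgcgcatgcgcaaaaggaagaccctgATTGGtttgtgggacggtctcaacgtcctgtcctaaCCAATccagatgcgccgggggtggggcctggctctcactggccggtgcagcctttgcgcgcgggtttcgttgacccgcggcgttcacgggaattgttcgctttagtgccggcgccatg
All 4 windows held at least 1 CCAAT box on either strand, VPS35 with 3, ORC6 and SHCBP1 with 2 each and KIF22 with 1, and only SHCBP1 of these 4 held TTTGAA.

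Over the 120 members of 154 with a RefSeq promoter, CCAAT or ATTGG occurred in 9 of 13 members of the cell division list (69.2%), in 37 of 107 other members (34.6%), in 67 of 199 genes from 47 Mb (33.7%) and in 34.6% of all 35116 promoters. TTTGAA or its reverse complement occurred in 7.69% of the division list, 9.35% of other members, 6.53% of genes from 47 Mb and 15.2% of all promoters. An E2F site, searched on both strands as TTTCCCGC, TTTCGCGC or TTTGGCGC, occurred in 15.4%, 3.74%, 7.54% and 2.74% of the same sets. The median GC content of the windows was 65.3% in members, 68.7% from 47 Mb and 58.7% in all promoters. The set of all promoters is unlike the others. It was not limited by level or gene type and not reduced to a single window per gene. PKD1P1 and AC126755.2 were matched to the same window, at chr16:18376790-18377089, so it was counted for both, and it does not lie at PKD1P1. For NPIPA1 the window lay inside the gene as annotated in GENCODE. A match of letters describes the window and shows no binding.

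Grouped by role, the members' medians in the BRM knockout ranged from -1.19 to 1.03. Beside each list count that follows stand the shares among protein-coding genes of the same level, 19.7% called lower and 23.4% higher. The lowest median was that of genome maintenance and cell division, a list with 12 of 14 members (85.7%) called lower and 0 higher by edgeR; leaving the list out, the other 140 members had a median of -0.49. KIF22 (ENSG00000079616.12; 29790719 to 29805385, plus strand) is a kinesin that moves chromosomes on the spindle. It stood at 14.1, 23.6 and 10.2 CPM in BRM knockout libraries, 47.3, 73.7 and 66.0 CPM in BRG1 knockout libraries and 91.2, 95.3 and 101 CPM in parental libraries. The 3 groups did not overlap, and the BRM knockout change was -2.59 ± 0.29. RMI2 (ENSG00000175643.9) is a subunit of the complex that dissolves recombination intermediates with the BLM helicase. It stood at 7.75, 5.51 and 5.97 CPM in BRM knockout libraries, 14.7, 18.7 and 15.4 CPM in BRG1 knockout libraries and 34.3, 27.8 and 36.1 CPM in parental libraries. Here too the 3 groups stood apart, at changes of -2.35 ± 0.20 in the BRM knockout and -1.01 ± 0.19 in the BRG1 knockout (edgeR adjusted p = 0.0015).

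HIRIP3 (ENSG00000149929.15), a histone chaperone, had 9.01, 5.36 and 6.98 CPM in BRM knockout libraries, 16.8, 23.2 and 20.6 CPM in BRG1 knockout libraries and 23.3, 28.4 and 33.1 CPM in parental libraries. The BRM knockout change was -1.99 ± 0.23. FOPNL (ENSG00000133393.12), a centrosomal protein, had 23.9, 28.5 and 27.2 CPM in BRM knockout libraries, 39.7, 38.8 and 49.5 CPM in BRG1 knockout libraries and 49.2, 62.1 and 56.7 CPM in parental libraries. The BRM knockout change was -1.08 ± 0.16. Both were lowest in the BRM knockout in every library. The 2 members of the list not called in that contrast were ERCC4, a nuclease of DNA repair, at -0.63 ± 0.28, and PRR14 at -0.10 ± 0.15, both named after their values were seen.

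Several genes described here overlap another tested gene, from which their reads may not be separable. On the same strand, ALDOA overlaps AC093512.2, ERI2 overlaps DCUN1D3, LAT overlaps AC109460.3, SULT1A4 overlaps SLX1B-SULT1A4, and TMEM265 overlaps SRCAP, AC106886.2 and AC106886.5. On opposite strands, MAZ, MVP and PRRT2 overlap AC009133.1, which at 39.7 CPM had a higher mean than PRRT2 at 4.53 CPM, and HIRIP3, RNF40, GPRC5B, BCL7C, ERI2 and YPEL3 also overlap a tested gene there.

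**Figure D4:**
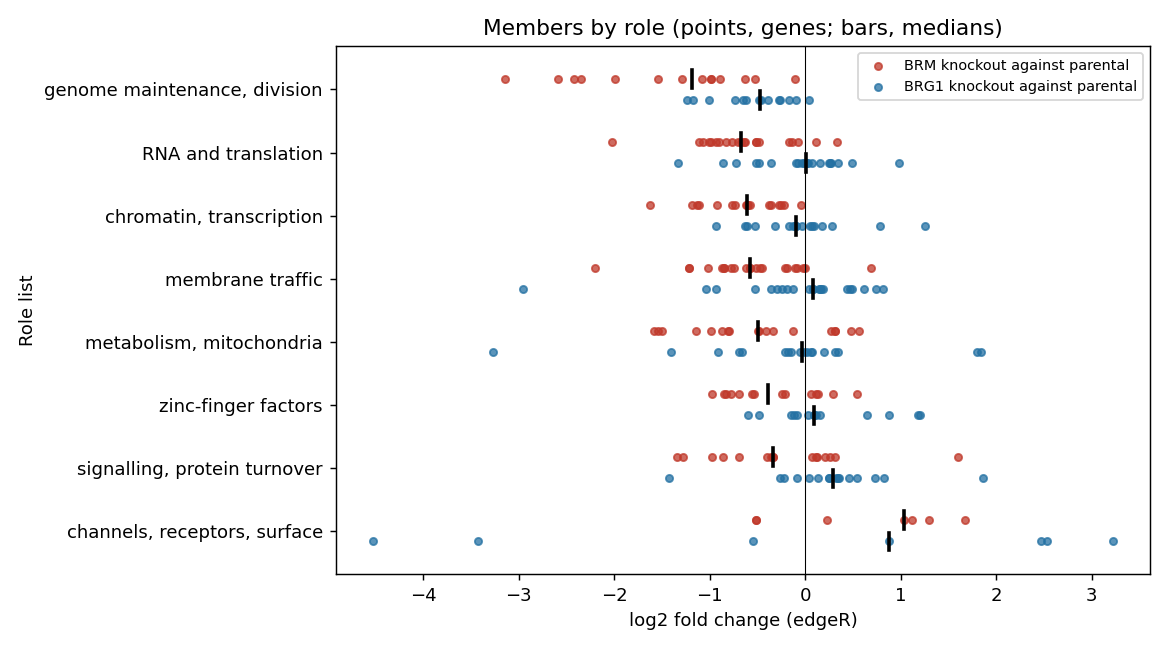
Log2 fold change (horizontal axis, edgeR) of the members in 8 role lists (vertical axis), with 1 point per gene and a bar at the list median, for BRM knockout against parental cells (upper row of each pair) and BRG1 knockout against parental cells (lower row). The BRM knockout median is below 0 in 7 lists, lowest at -1.19 in genome maintenance and division, and 1.03 in channels, receptors and surface proteins.

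RNA and translation genes had a BRM knockout median of -0.68, with 16 of 21 (76.2%) called lower and 0 higher. ERI2 (ENSG00000196678.13), of a family of 3′ exonucleases, had 6.73, 5.36 and 6.07 CPM in BRM knockout libraries, 7.36, 7.47 and 14.5 CPM in BRG1 knockout libraries and 19.6, 27.2 and 26.8 CPM in parental libraries. It was lower in every knockout library than in any parental one, with changes of -2.02 ± 0.28 in the BRM knockout and -1.33 ± 0.27 in the BRG1 knockout (edgeR adjusted p = 0.0027). RPS15A (ENSG00000134419.15), a protein of the small ribosomal subunit, had 324, 345 and 348 CPM in BRM knockout libraries, 764, 871 and 587 CPM in BRG1 knockout libraries and 400, 366 and 356 CPM in parental libraries. Its BRM knockout change was -0.14 ± 0.16 and its BRG1 knockout change 0.99 ± 0.16 (edgeR adjusted p = 7.3e-04). EIF3C (ENSG00000184110.14), a subunit of the initiation factor eIF3, has a close copy in EIF3CL. It had 377, 279 and 338 CPM in BRM knockout libraries, 317, 367 and 423 CPM in BRG1 knockout libraries and 431, 504 and 484 CPM in parental libraries. Its BRM knockout change was -0.51 ± 0.17, and the call was lost when any of 4 single libraries was left out and with the replicate block.

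Chromatin and transcription genes had a median of -0.61, with 11 of 18 (61.1%) called lower and 0 higher. MAZ (ENSG00000103495.13), a zinc-finger factor that binds GC-rich promoters, had 113, 120 and 115 CPM in BRM knockout libraries, 233, 256 and 316 CPM in BRG1 knockout libraries and 236, 219 and 206 CPM in parental libraries. The BRM knockout change was -0.93 ± 0.15. RNF40 (ENSG00000103549.21), part of the ubiquitin ligase for histone H2B, had 120, 103 and 113 CPM in BRM knockout libraries, 146, 144 and 167 CPM in BRG1 knockout libraries and 166, 177 and 171 CPM in parental libraries. The BRM knockout change was -0.61 ± 0.13. In both genes the BRM knockout libraries lay below all 6 others. BCL7C (ENSG00000099385.11), itself a SWI/SNF subunit, was named after its values were seen. It had 31.6, 25.7 and 29.4 CPM in BRM knockout libraries, 46.7, 61.0 and 43.9 CPM in BRG1 knockout libraries and 43.7, 42.9 and 57.4 CPM in parental libraries. Its BRM knockout change was -0.73 ± 0.18, and its BRG1 knockout change of 0.07 ± 0.18 was not called (edgeR adjusted p = 0.76).

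Membrane traffic genes had a median of -0.58, with 15 of 22 (68.2%) called lower and 0 higher. ARL6IP1 (ENSG00000170540.14) shapes the endoplasmic reticulum. It had 90.2, 121 and 91.1 CPM in BRM knockout libraries, 177, 196 and 304 CPM in BRG1 knockout libraries and 408, 496 and 487 CPM in parental libraries. The groups did not overlap, at changes of -2.20 ± 0.22 in the BRM knockout and -1.04 ± 0.22 in the BRG1 knockout (edgeR adjusted p = 0.0029). NOMO1 (ENSG00000103512.14), a protein of the translocon region, has near-identical copies in NOMO2 and NOMO3. It had 130, 142 and 134 CPM in BRM knockout libraries, 341, 360 and 517 CPM in BRG1 knockout libraries and 231, 256 and 243 CPM in parental libraries. It lay below parental cells in the BRM knockout, at -0.85 ± 0.17, and above them in the BRG1 knockout, at 0.74 ± 0.17 (edgeR adjusted p = 0.0053). Reads may be divided among the copies in a way the files do not show.

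Metabolic and mitochondrial genes had a median of -0.49, with 8 of 18 (44.4%) called lower and 1 (5.56%) higher. ALDOA (ENSG00000149925.18; 30064164 to 30070457, plus strand) is the glycolytic aldolase and the member with the highest mean CPM. It had 919, 671 and 882 CPM in BRM knockout libraries, 1238, 1716 and 1291 CPM in BRG1 knockout libraries and 1303, 1844 and 1766 CPM in parental libraries. The BRM knockout libraries lay below all others, with a change of -0.99 ± 0.20, and BRG1 knockout and parental libraries overlapped. The 1 called higher was UQCRC2, a core subunit of respiratory complex III named after its values were seen, at 0.57 ± 0.20 in the BRM knockout and 1.84 ± 0.21 in the BRG1 knockout (edgeR adjusted p = 6.8e-05).

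Zinc-finger factors had a median of -0.39, with 7 of 14 (50%) called lower and 0 higher. The pair with the highest levels was not among those 7. ZNF768 (ENSG00000169957.9) had 72.5, 60.9 and 55.9 CPM in BRM knockout libraries, 59.0, 68.1 and 57.6 CPM in BRG1 knockout libraries and 65.1, 54.3 and 53.2 CPM in parental libraries. ZNF629 (ENSG00000102870.5) had 42.0, 34.0 and 40.0 CPM in BRM knockout libraries, 68.0, 55.9 and 80.3 CPM in BRG1 knockout libraries and 37.1, 36.5 and 37.5 CPM in parental libraries. BRM knockout and parental libraries overlapped in both genes, and the ZNF629 change of 0.06 ± 0.16 became -0.43, and was then called lower, with offsets for GC content and length. In the BRG1 knockout ZNF629 was higher, at 0.88 ± 0.16 (edgeR adjusted p = 0.0013).

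Signalling and protein turnover genes had a median of -0.34, with 5 of 16 (31.2%) called lower and 1 (6.25%) higher, against 19.7% and 23.4% of protein-coding genes of the same level. MVP (ENSG00000013364.18) encodes the major vault protein. It had 125, 143 and 154 CPM in BRM knockout libraries, 125, 99.5 and 137 CPM in BRG1 knockout libraries and 138, 99.3 and 114 CPM in parental libraries, and the groups overlapped. The 1 called higher was YPEL3 (ENSG00000090238.11), of the yippee-like family. It had 21.1, 24.7 and 26.5 CPM in BRM knockout libraries, 35.5, 31.4 and 19.6 CPM in BRG1 knockout libraries and 14.5, 4.36 and 4.98 CPM in parental libraries. Its BRM knockout change was 1.603 ± 0.42, a call lost without parental replicate 3, at 1.35, and with no filter on low counts, at 1.51. Its BRG1 knockout change was 1.86 ± 0.42 (edgeR adjusted p = 0.0050).

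**Figure D5:**
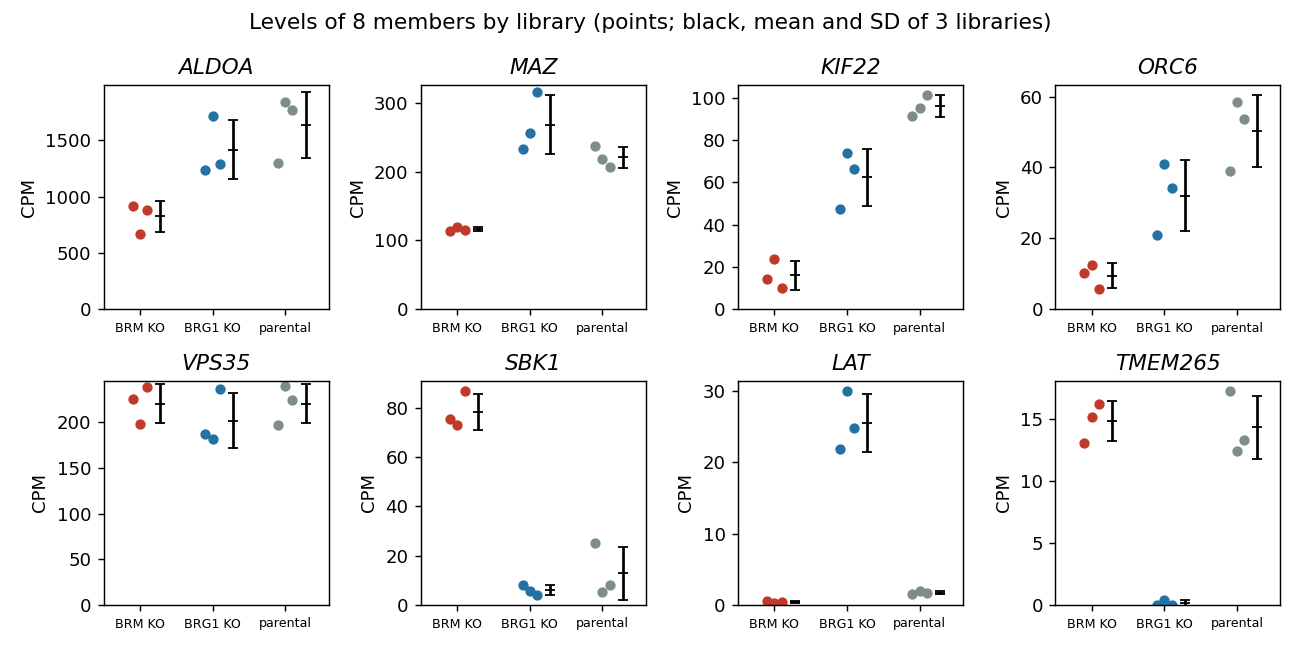
CPM (vertical axes, starting at 0) of 8 members in each library, with points for the 3 libraries of the BRM knockout, the BRG1 knockout and the parental line from left to right and black bars for the mean and SD. ALDOA, MAZ, KIF22 and ORC6 are lowest in the BRM knockout, VPS35 overlaps between all groups, and SBK1, LAT and TMEM265 have 1 group far from the others.

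Channels, receptors and surface proteins had a median of 1.03, with 0 of 7 called lower and 3 (42.9%) higher, against 19.7% and 23.4% of protein-coding genes of the same level. The other 4 were not called, and 2 of the 7, TMC5 and GPRC5B, were below 0 at -0.51 and -0.52. Without BRM knockout replicate 2, TMC5 was called lower, at -1.07. Parental replicate 1 stood apart in this list, with a median log2 ratio to the parental mean of 0.46, against -0.30 and -0.23 in parental replicates 2 and 3. The 3 called were TMC7, PRRT2 and SEZ6L2. TMC7 (ENSG00000170537.12), a transmembrane channel-like protein, had 52.1, 40.9 and 71.5 CPM in BRM knockout libraries, 10.7, 10.7 and 14.2 CPM in BRG1 knockout libraries and 20.9, 15.5 and 15.4 CPM in parental libraries. The BRM knockout change was 1.67 ± 0.23. PRRT2 (ENSG00000167371.19), a membrane protein of synapses, had 3.22, 3.61 and 3.97 CPM in BRM knockout libraries, 9.12, 6.60 and 9.82 CPM in BRG1 knockout libraries and 2.03, 0.913 and 1.48 CPM in parental libraries. SEZ6L2 (ENSG00000174938.14), a neuronal surface protein, had 107, 86.3 and 104 CPM in BRM knockout libraries, 287, 263 and 212 CPM in BRG1 knockout libraries and 66.2, 38.2 and 33.2 CPM in parental libraries. For PRRT2 and SEZ6L2 both knockouts lay above every parental library. Their changes were 1.29 ± 0.31 and 1.11 ± 0.24 in the BRM knockout. In the BRG1 knockout they were 2.53 ± 0.32 for PRRT2 and 2.47 ± 0.25 for SEZ6L2 (edgeR adjusted p = 3.6e-05 for SEZ6L2). PRRT2 passed the minimum of 4 CPM only through the BRG1 knockout. Its mean was 8.52 CPM there, against 3.60 CPM in BRM knockout and 1.47 CPM in parental libraries. Its rises, and its place among the 3 called, are therefore a description. GPRC5B (ENSG00000167191.11), an orphan G protein-coupled receptor, had 4.26, 7.68 and 5.01 CPM in BRM knockout libraries, 61.6, 67.1 and 98.2 CPM in BRG1 knockout libraries and 12.6, 5.66 and 6.03 CPM in parental libraries. Its BRG1 knockout change was 3.23 ± 0.36 (edgeR adjusted p = 6.4e-05).

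Of the 18 members in segmentally duplicated families, 11 (61.1%) were called lower in the BRM knockout and 0 higher, with a median of -0.62; without them the other 136 members had a median of -0.51. The 20 members in no list had a median of 0.08, with 6 called lower (30.0%) and 2 higher (10.0%), and held both extremes of the BRG1 knockout. SBK1 (ENSG00000188322.4), a serine/threonine kinase, had 75.6, 73.0 and 86.9 CPM in BRM knockout libraries, 8.13, 5.71 and 3.93 CPM in BRG1 knockout libraries and 25.2, 5.40 and 7.92 CPM in parental libraries. It was the largest rise among members in the BRM knockout, at 2.62 ± 0.51. LAT (ENSG00000213658.11) is an adaptor of T cell receptor signalling. It had 0.563, 0.271 and 0.380 CPM in BRM knockout libraries, 21.8, 30.0 and 24.8 CPM in BRG1 knockout libraries and 1.51, 2.01 and 1.67 CPM in parental libraries. Its 3 groups did not overlap, with changes of -2.08 ± 0.29 in the BRM knockout and 3.88 ± 0.27 in the BRG1 knockout. LAT passed the minimum of 4 CPM only through the BRG1 knockout. Its mean was 25.5 CPM there, against 0.405 CPM in BRM knockout and 1.73 CPM in parental libraries. Its rise in the BRG1 knockout is therefore a description. Of the 6 blood cell markers, CD68 stood at 8.13 to 54.8 CPM over the 9 libraries, highest in BRM knockout replicate 2 and lowest in BRG1 knockout replicate 3. PTPRC and CD3E were at or under 0.553 CPM in every library.

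The comparison of the BRG1 knockout with parental cells was not named in the rule, but it shares the parental libraries with the BRM comparison. Over the 154 members its median log2 change was -0.02, with 26 called lower (16.9%), 29 higher (18.8%) and 99 neither by edgeR, where 43.5% of all tested genes were called in either direction, 21.9% lower and 21.6% higher. Of the protein-coding genes of the same level 46.6% were called, 23.8% lower and 22.8% higher. Without BRG1 knockout replicate 3 the number called lower was 40, and without that library and parental replicate 1 it was 43. The shares of all tested genes called in those reduced fits are not given here, so nothing is read from these numbers. In 35 members (22.7%) all 3 BRG1 knockout libraries lay below the parental ones and in 35 above them, against 27.1% and 26.1% of all tested genes and 28.8% and 27.1% of those protein-coding genes. From 47 Mb the median was 0.37, with 31 of 252 called lower and 99 higher (39.3%).

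The 5 largest called falls among members in the BRG1 knockout were TMEM265, TMC5, PRSS8, SULT1A4 and CORO1A. TMEM265 (ENSG00000281991.1) had 13.1, 15.1 and 16.2 CPM in BRM knockout libraries, 0, 0.395 and 0 CPM in BRG1 knockout libraries and 17.2, 12.5 and 13.3 CPM in parental libraries. Its BRG1 knockout change was -6.69 ± 0.75 (edgeR adjusted p = 8.3e-05), a size that depends on the prior count. TMC5 (ENSG00000103534.16), a transmembrane channel-like protein, had 11.1, 28.9 and 12.7 CPM in BRM knockout libraries, 1.54, 0.895 and 0.830 CPM in BRG1 knockout libraries and 29.9, 21.6 and 23.7 CPM in parental libraries. It fell by 4.53 ± 0.42 in the BRG1 knockout (edgeR adjusted p = 2.0e-05). PRSS8 (ENSG00000052344.15) encodes prostasin, an epithelial membrane protease. It had 101, 146 and 103 CPM in BRM knockout libraries, 8.13, 7.68 and 0.138 CPM in BRG1 knockout libraries and 97.9, 34.4 and 38.9 CPM in parental libraries. It fell by 3.42 ± 0.90 in the BRG1 knockout (edgeR adjusted p = 0.013). In all 3 genes each BRG1 knockout library was lower than any other library, and the summed epithelial markers given above were lower in the same libraries; their part in these changes was not tested. The PRSS8 call was lost with no filter on low counts (edgeR adjusted p = 0.068).

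SULT1A4 (ENSG00000213648.10), a sulfotransferase with a duplicate copy, had 4.69, 4.61 and 3.04 CPM in BRM knockout libraries, 1.25, 1.605 and 0.747 CPM in BRG1 knockout libraries and 11.6, 8.79 and 14.4 CPM in parental libraries. CORO1A (ENSG00000102879.15), an actin-binding coronin, had 20.3, 22.5 and 19.4 CPM in BRM knockout libraries, 4.89, 6.37 and 7.30 CPM in BRG1 knockout libraries and 57.9, 37.2 and 49.3 CPM in parental libraries. Both were lowest in the BRG1 knockout, intermediate in the BRM knockout and highest in parental cells, with no overlap. Their changes were -1.50 ± 0.32 and -1.21 ± 0.20 in the BRM knockout and -3.27 ± 0.34 and -2.96 ± 0.22 in the BRG1 knockout (edgeR adjusted p = 4.0e-05 and 4.5e-06).

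Set against the BRG1 knockout instead of parental cells, BRM knockout libraries had a member median of -0.56, with 86 members called lower and 14 higher by edgeR, where 45.3% of all tested genes were called in either direction, 21.6% lower and 23.8% higher. Of the protein-coding genes of the same level 49.7% were called, 24.6% lower and 25.1% higher. From 47 Mb the median of this contrast was 0.02, with 63 of 252 called lower and 65 higher. This contrast uses the BRM knockout libraries that the rule used, and it is a description too.

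Properties of the genes and their transcripts were set beside the change. Of these the rule used mean CPM, for its minimum, and not GC content, length or strand. Members had a median GC content of 54.4% and a median transcript length of 2843 bases, against 54.6% and 2886 bases from 47 Mb and 48.4% and 3039 bases on other chromosomes. Members in the low, middle and high tercile of GC content had BRM knockout medians of -0.73, -0.51 and -0.41, where genes from 47 Mb had 0.14, 0.27 and 0.66 and genes of other chromosomes -0.06, 0.02 and 0.25. Member medians were lower than those of the other sets in each tercile, in the contrast from which the interval was proposed. The part of GC content in the change was not tested. In the low, middle and high tercile of mean CPM the member medians were -0.40, -0.58 and -0.59. Genes from 47 Mb had 0.705, 0.46 and 0.36 and genes of other chromosomes 0.13, 0.04 and 0.03, so the medians fell with level in all these sets. By strand, the member medians were -0.51 for 82 members on the plus strand and -0.54 for 72 on the minus strand.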

How the data were processed

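Each library had 1 deposited table of estimated counts per transcript, made by the authors with Salmon, per the submitters' processing notes, and not normalized, per the file headers. The notes also name DESeq2 and hg38. The sources used here do not give versions, annotation, library type or strand setting. The TPM values in the deposited tables were made by the same Salmon run, per the file headers, and entered no comparison.

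Of 203835 transcripts, 203746 were assigned to GENCODE release 29, and the 89 others took up to 0.0193% of reads per library. Estimated counts were summed to 58237 genes and rounded. Libraries were scaled by TMM, filterByExpr kept 18205 genes, and edgeR 4.0.16 in R 4.3.3 fitted 1 mean per group over all 9 libraries (robust glmQLFit, quasi-likelihood F test, two-sided; common biological coefficient of variation 0.253, 6 residual degrees of freedom). A call is an adjusted p under 0.05, by Benjamini-Hochberg over all genes tested. The standard error (SE) is the size of the log2 fold change over the root of its F statistic. CPM are TMM-scaled and not divided by length, so levels are not compared between genes. With 31969961 to 40679073 reads a library, 4 CPM is over 100 reads, and at that level the number of libraries limits precision more than counting does. The minimum is a mean over all 9 libraries, so a member can have few reads in a group. Examples are LAT in the BRM knockout, at 0.271 to 0.563 CPM, and TMEM265 in the BRG1 knockout, at 0 to 0.395 CPM. For such members this does not hold. The fit was tested on simulated data, as was the step fit.

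The step fit placed 2 edges in the log2 ratios of a library's CPM to the parental mean, limited to 8 in either direction, by the smallest sum of absolute deviations with at least 5 genes a level. Groups followed the labels. Named genes were the first and last members, those beside each bound, the largest changes in either comparison, the 2 members of highest level in each list and the genes at the fitted edges. Other genes are marked as named after their values were seen. The members and lists were chosen with earlier results of these data known. Alternatives were RLE size factors, other filters and level minimums, DESeq2 1.42.0, 6-library fits, a replicate block, offsets for GC content and length (loess, span 0.5), other comparison genes, and leaving out libraries or lists.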

Additional observations from a re-analysis of the deposited data

How the results depend on the processing

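The members' lower median in the BRM knockout kept its sign under every alternative run. Against parental cells it was -0.71 with GC and length offsets, -0.72 with those and the replicate block, -0.57 with RLE size factors, -0.60 in the 6-library fit, -0.62 with no low-count filter, and -0.65 to -0.50 with 1 library left out. The median of all protein-coding genes of the same level moved too, from 0.06 to -0.06 with the offsets (BRM knockout against BRG1 knockout, from -0.02 to -0.18), so part of these moves is shared by all genes. The difference from genes beyond 47 Mb was -0.94 with the offsets, -0.95 with the block added, -0.99 at a minimum of 1 CPM, -0.90 at 10 CPM, -0.95 without the division list, -0.38 against genes below 11 Mb, -0.57 against other chromosomes, and -1.004 to -0.951 with 1 library left out. In the BRG1 knockout against parental cells the member median was -0.10 with no low-count filter and -0.13 to 0.012 with 1 library left out, and the difference was -0.071 against genes below 11 Mb and 0.014, with its sign turned, against other chromosomes. In BRM knockout against BRG1 knockout the median was -0.74 with the offsets and -0.73 with the block added, and the difference was -0.53 at 10 CPM, -0.29 against genes below 11 Mb and -0.59 to -0.52 with 1 library left out.

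With 1 library left out, members called lower by edgeR numbered 57 to 94 in the BRM knockout and 21 to 40 in the BRG1 knockout, and members called higher numbered 4 (without parental replicate 3) to 13 (without parental replicate 1) in the BRM knockout and 23 to 30 in the BRG1 knockout. Without both parental replicate 1 and BRG1 knockout replicate 3, a choice made after seeing the data, the BRM knockout median was -0.62, its difference -0.998 and its number called higher 13; the BRG1 knockout median was -0.10 and its number called lower 43; and the BRM to BRG1 difference was -0.52. In the mean of the BRM knockout libraries the upper edge moved to 47.08 Mb by least squares and to 31.87 Mb without the division list, an alternative also chosen after seeing the data, and the lower edge stayed at 2.2 Mb. By library, the upper edge stayed at 46.69 Mb in replicate 2 by least squares, with its lower edge at 2.43 Mb, and without the division list it was 46.8 Mb in replicate 1 and 46.66 Mb in replicate 2. Without BRM knockout replicate 2 the BRM knockout median was -0.51, with 68 members called lower and 5 higher. DESeq2 called 88 members lower and 7 higher in the BRM knockout. For the alternative fits here and below, the shares of all tested genes called in the same fit are not given. The counts of called members therefore have no reference, and nothing is read from their moves.

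Same-numbered libraries had correlations of -0.08 to 0.17 in their deviations from the group means, so the numbers were not taken to pair them. With the replicate block the BRM knockout median was -0.52, with 74 members called lower and 8 higher, and the BRG1 knockout median was -0.02, with 28 lower and 27 higher. The ZNF629 change in the BRM knockout turned from 0.06 to -0.43 with the offsets, with and without the block. Causes of these moves were not tested. In these libraries, changes of single genes under about 0.5 on the log2 scale were often not called.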

Other observations

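Genes of the interval that were not members had BRM knockout medians below 0 in each of the 3 kinds described here. Their shares called by edgeR stand beside those of all tested genes, 16.4% lower and 21.0% higher. Of the 109 protein-coding genes under 4 CPM, 42 passed the filter of the fit, with a median log2 change of -0.27 in BRM knockout against parental cells, 6 called lower (14.3%) and 2 higher (4.76%). The 43 tested genes of the same kind from 47 Mb had a median of 1.24, with 0 called lower and 20 higher (46.5%). Among 44 tested long noncoding RNA genes of the interval the median was -0.43, with 9 called lower (20.5%) and 0 higher, and among 81 from 47 Mb it was 0.85, with 5 lower (6.17%) and 25 higher (30.9%). The 24 tested pseudogenes of the interval had a median of -0.06, with 1 called lower and 1 higher (4.17% each), and the 15 from 47 Mb one of 0.50.

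In BRG1 knockout against parental cells the same long noncoding RNA genes had a median of 0.15 in the interval, with 8 called lower (18.2%) and 7 higher (15.9%), and of 0.68 from 47 Mb, with 5 lower (6.17%) and 28 higher (34.6%), where 21.9% of all tested genes were called lower and 21.6% higher. The medians of whole chromosomes in BRM knockout against parental cells ran from -0.32 on chromosome 12 to 0.21 on chromosome 22, and chromosome 16 as a whole stood at 0.04, between the low and the high block described above.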
